A study of Mus musculus with 6 samples.

Results

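The genes for mitochondrial ribosomal proteins were examined in N2a cells, a mouse neuroblastoma line. They were taken from the deposited gene table as all protein-coding genes named Mrpl or Mrps followed by a number, which gave 78 of the 54532 genes listed. Of these, 51 encode proteins of the large subunit of the mitochondrial ribosome and 26 proteins of the small subunit. Mrps36 carries the name of a small-subunit protein but is now assigned to the 2-oxoglutarate dehydrogenase complex.

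The study compared 3 libraries of N2a cells transfected with the control siRNA si-NC with 3 libraries of N2a cells transfected with si-circRtn4, to ask which mRNAs respond when circRtn4 is silenced. CircRtn4 is a circular RNA made from exons of Rtn4, the reticulon 4 gene, and si-circRtn4 is the siRNA used against it. Both groups are this single cultured line, for which the labels give the strain C57BL/6 and growth medium with serum. The study's general methods move transfected N2a cells to differentiation medium with retinoic acid and little serum before harvest, and it is not stated whether that was done for these libraries. Nothing in the labels gives the siRNA dose or harvest time, or says whether the 3 libraries of a group came from separate cultures, so the p-values measure the spread between these libraries, which may be technical.

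The mitochondrial ribosome, or mitoribosome, translates the mRNAs of the mitochondrial genome, which encode core subunits of the respiratory chain and of ATP synthase. Its rRNAs are transcribed inside the mitochondrion from the same genome, whereas all of its proteins are encoded in the nucleus, translated in the cytosol and imported. Part of these proteins have homologs in bacterial ribosomes and part are found only in mitochondria. Neurons depend heavily on respiration, and defects of the mitoribosome or its assembly are known causes of inherited mitochondrial disease.

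The libraries held 13541198 to 15122063 reads as recovered from the table, and levels are given in FPKM (fragments scaled by gene length and by the size of the library), as deposited. The neuroblastoma markers Phox2a, Hand2, Gata2, Gata3, Isl1, Tubb3 and Stmn2 were all measured well, with summed levels of 974.5 to 1090 FPKM in the si-NC libraries and 695.9 to 975.2 FPKM in the si-circRtn4 libraries. Of these 7 genes, Gata2 and Phox2a fell at the threshold used below. No marker of fibroblasts, immune cells, astrocytes or endothelial cells reached a mean of 1 FPKM, and no such list summed to more than 1.324 FPKM in a library. The part of the lower neuroblastoma markers in the results below was not tested. The circle itself has no value of its own in the table. The host gene Rtn4 had 65.9 ± 4.49 FPKM (SD, n = 3) in si-NC and 56.5 ± 6.32 FPKM (SD, n = 3) in si-circRtn4 (limma, Benjamini-Hochberg adjusted p = 0.216), and Chd5, a chromatin remodeller studied as a downstream gene, fell by 1.23 on the log2 scale (limma adjusted p = 0.00139).

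Levels of the members spanned a wide range and were similar in both groups. The highest mean over the 6 libraries was 22.1 times the lowest mean above 0, 68 members lay between 5 and 50 FPKM, 3 lay above 50 FPKM and 6 members above 0 lay under 5 FPKM. Mrpl34 encodes a small basic protein of the large subunit and had the highest level, at 102.8, 98.2 and 80.4 FPKM in si-NC replicates 1 to 3 and 77.1, 86.1 and 80.2 FPKM in si-circRtn4 replicates 1 to 3. The ranges of the 2 groups touch only at the third si-NC library, which lies among the si-circRtn4 values, and the difference was not past the threshold (log2 fold change -0.20, SE 0.106, limma adjusted p = 0.284). Next in level came Mrpl2, a protein of the catalytic core of the ribosome, with a mean of 57.0 FPKM, the stalk proteins Mrpl10 and Mrpl12 with 52.3 and 48.8 FPKM, and Mrpl14 with 46.3 FPKM. The library values of Mrpl34 lie above those of all others, while those of the next 4 genes overlap each other in this order.

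At the lower end stood Mrpl32 with a mean of 4.58 FPKM, Mrps25 with 4.27 FPKM, Mrps35 with 4.17 FPKM, Mrpl1 with 4.12 FPKM and Mrpl48 with 3.95 FPKM, and their library values overlap. The fewest reads behind a library value of any member tested were 131, for Mrps18c. Mrpl53 was listed at 0 in all 6 libraries. In the GENCODE M21 annotation, 88.0% of the exon bases of Mrpl53 are shared with Gm42688, a protein-coding gene model on the same strand, so reads from that stretch match both models, and the 0 does not show that the gene was silent. Gm42688 was itself at 0.492 to 0.573 FPKM in si-NC and 0.171 to 0.195 FPKM in si-circRtn4.

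**Figure D1:**
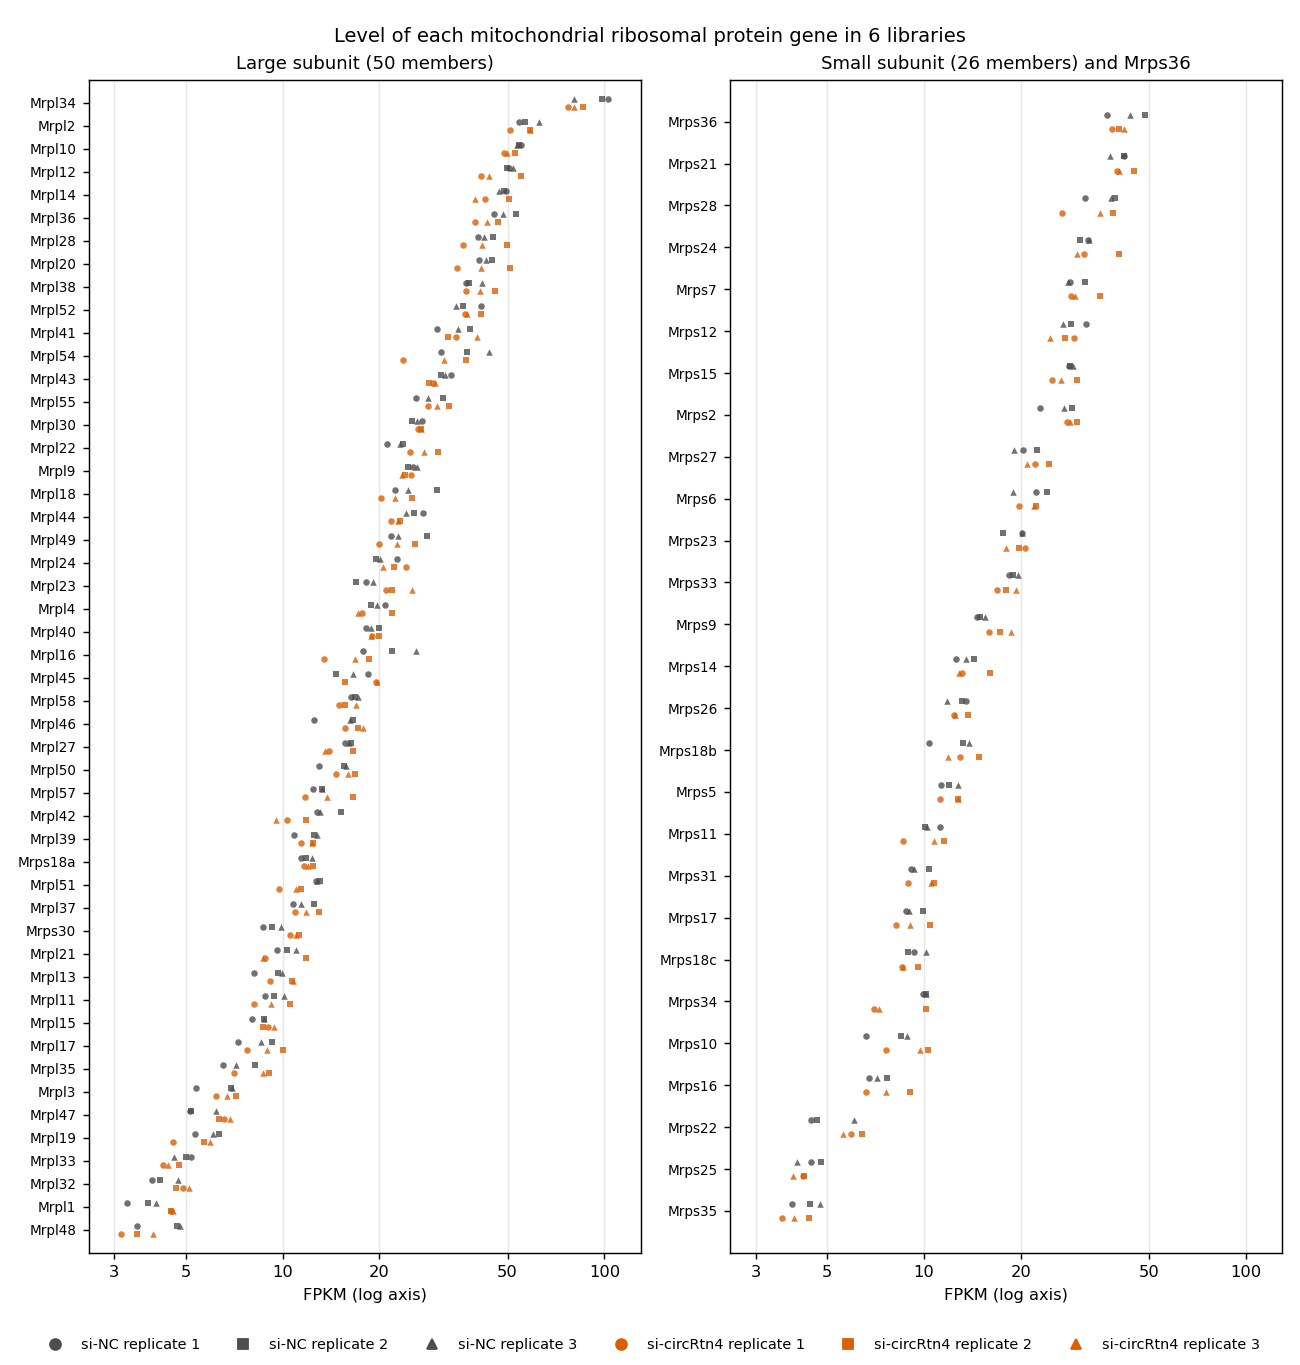
FPKM (log axis) of the 77 members above 0 in each library, ordered by mean level, with large-subunit members on the left and small-subunit members and Mrps36 on the right. Grey symbols are si-NC, orange symbols are si-circRtn4, and the shape gives the replicate number; from Mrpl34 at the top to Mrpl48 at the bottom, the 2 colours mostly lie side by side.

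No member passed the unpaired test between the groups. The test was limma on log2(FPKM + 1) across the 12749 genes that averaged 1 FPKM or more, with Benjamini-Hochberg adjustment over all of them, and 77 of the 78 members entered it. At an adjusted p under 0.05, 0 members were higher and 0 were lower in si-circRtn4, where 4.36% of all genes tested were higher and 4.82% were lower. At an unadjusted p under 0.05, 6 members were higher and 5 were lower, which is 7.79% and 6.49% of the members beside 13.1% and 12.8% of all genes. Without overlap between the groups, 6 members were higher and 5 were lower, beside 16.2% and 15.5% of all genes. Each of these shares of the members is below the share of all genes, and that difference was not tested. The smallest adjusted p was 0.0736, for Mrpl23.

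The sizes of the differences were also small. The median log2 fold change of the 77 members was 0.004, with quartiles of -0.102 and 0.087, and the median of all genes tested was 0.002, with quartiles of -0.140 and 0.148. There were 40 members above 0 and 37 below. The 95% interval of a member's log2 fold change reached a median of 0.221 to either side, from 0.153 for the best measured member to 0.418 for the least. For 74 members the whole interval lay within a 1.5-fold change in either direction (0.585 on the log2 scale). The other 3 were Mrpl16, Mrpl54 and Mrps34, whose intervals reached further on the lower side, at most to -0.772 for Mrpl16. Because the log2(FPKM + 1) scale understates changes of low genes, these intervals are narrower for members under 5 FPKM than they would be on plain log2 values.

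**Figure D2:**
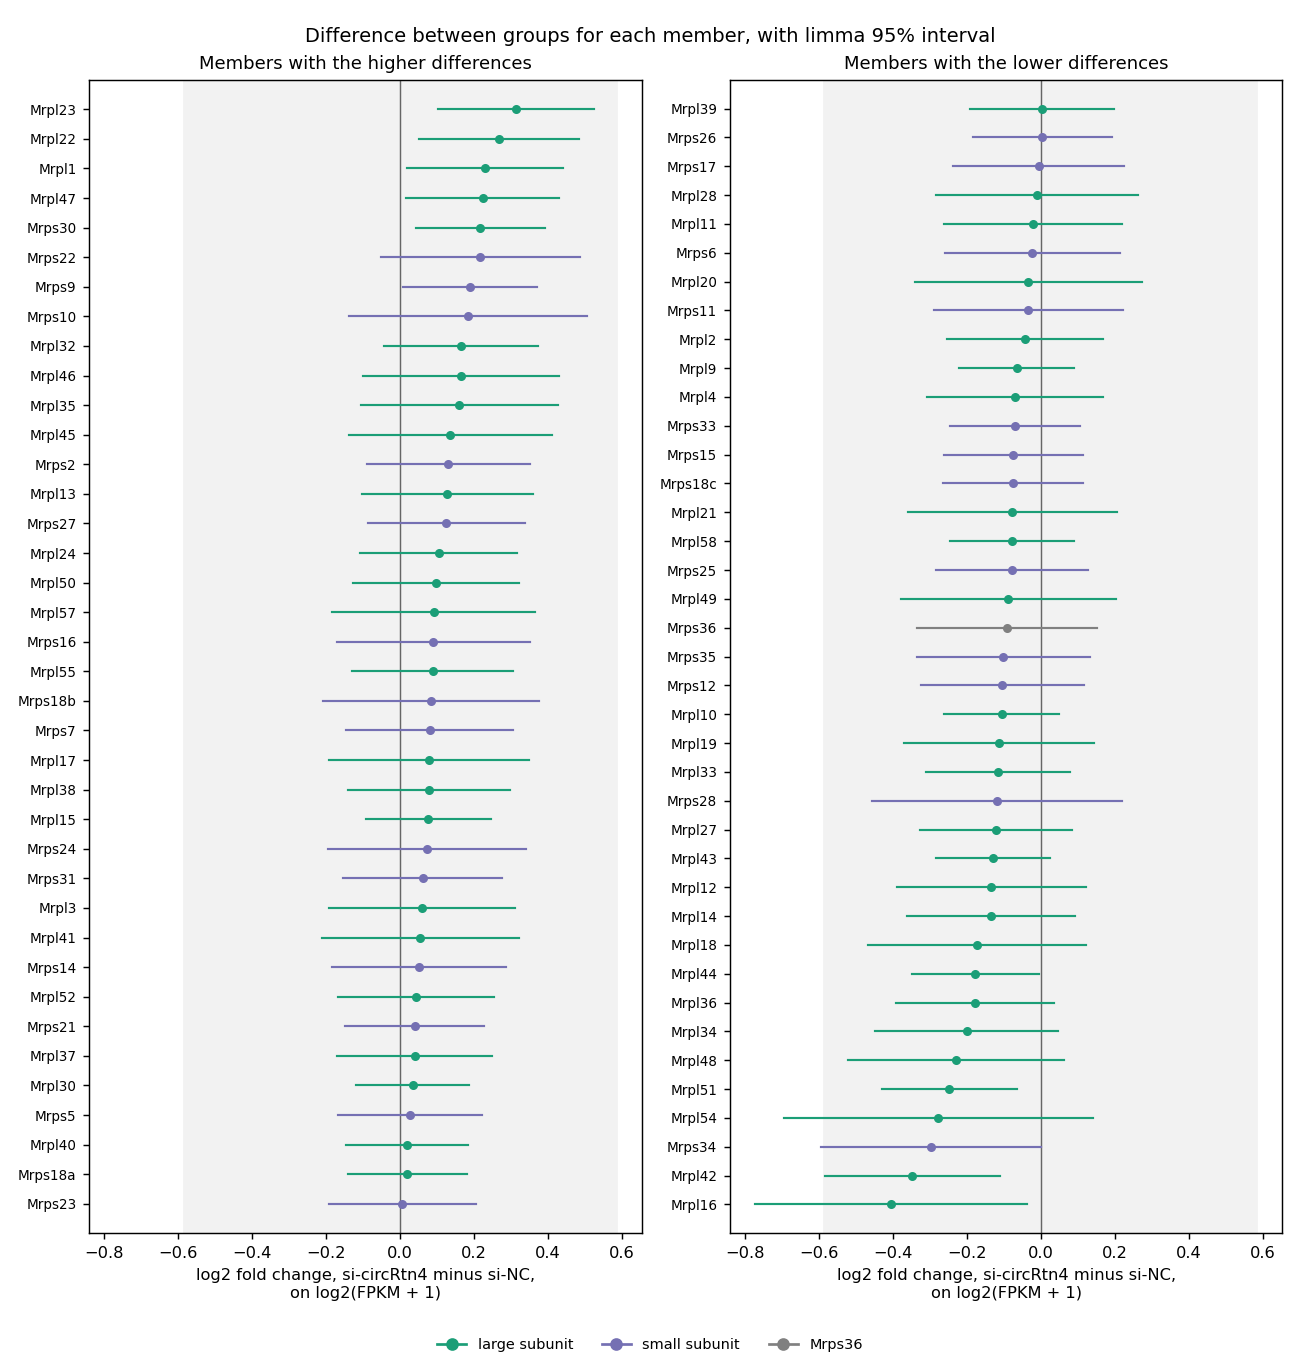
Log2 fold change (si-circRtn4 minus si-NC, on log2(FPKM + 1)) of each of the 77 members tested, with its 95% interval from limma; green is the large subunit, violet the small subunit and grey Mrps36. The grey band marks a 1.5-fold change in either direction, and the intervals of all but Mrpl16, Mrps34 and Mrpl54 lie inside it.

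Replicate numbers tie the libraries of the 2 groups together in these data. With the replicate number as a block in the fit, 2 members passed as higher (Mrpl22 and Mrpl23) and 3 as lower (Mrpl16, Mrpl42 and Mrpl51), where 9.29% of all genes were higher and 9.75% were lower. As shares of the 77 members both counts stay under the background of that fit. These 5 genes are all large-subunit members and are described next, with the promoter of each as far as the reference tables hold it.

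The sequences show 100 bases before and 40 bases after the RefSeq start site (GRCm38.p6), 5′ to 3′ on the strand of the gene. Capitals mark matches to 4 motifs known from promoters of nuclear genes for mitochondria, which were searched on both strands: CCGGAAG for ETS factors such as GABP, AAGATGGCG for YY1, GCGCANGCG for NRF1, and the E-box CACGTG bound by MYC. No motif contains another, but neighbouring matches can share end bases. Examples are the last bases of the ETS motif with the first of the YY1 motif, and the last of the YY1 motif with the first of the NRF1 motif. Mrpl22 is at chr11:58171564-58171703 (plus strand), Mrpl23 at chr7:142532932-142533071 (plus), Mrpl16 at chr19:11770315-11770454 (plus), Mrpl42 at chr10:95501910-95502049 (minus) and Mrpl51 at chr6:125192100-125192239 (plus).
Mrpl22: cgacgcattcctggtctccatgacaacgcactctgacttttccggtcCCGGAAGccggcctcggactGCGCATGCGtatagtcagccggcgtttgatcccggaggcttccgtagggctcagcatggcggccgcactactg
Mrpl23: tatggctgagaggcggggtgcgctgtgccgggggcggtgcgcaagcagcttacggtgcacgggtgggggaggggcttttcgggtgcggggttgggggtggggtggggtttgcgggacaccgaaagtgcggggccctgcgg
Mrpl16: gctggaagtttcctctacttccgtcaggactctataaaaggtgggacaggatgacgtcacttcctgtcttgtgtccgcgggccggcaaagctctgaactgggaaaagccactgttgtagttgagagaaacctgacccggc
Mrpl42: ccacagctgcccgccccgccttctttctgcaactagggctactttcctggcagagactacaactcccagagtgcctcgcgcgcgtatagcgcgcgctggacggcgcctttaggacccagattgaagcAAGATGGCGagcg
Mrpl51: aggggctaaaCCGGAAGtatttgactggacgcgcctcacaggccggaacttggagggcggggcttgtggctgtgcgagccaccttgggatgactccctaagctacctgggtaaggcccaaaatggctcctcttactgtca
The windows of Mrpl16 and Mrpl23, which differed in opposite directions, hold none of these motifs.

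Mrpl23 encodes uL23m, a protein at the exit of the tunnel through which the new chain leaves the ribosome. It had 18.1, 16.9 and 19.1 FPKM in si-NC and 20.99, 21.9 and 25.2 FPKM in si-circRtn4. Every si-circRtn4 library lies above every si-NC library, and the mean was 125.8% of si-NC (log2 fold change 0.31, SE 0.0903, limma adjusted p = 0.0736, with the block 0.0246). Mrpl22 encodes uL22m, which lines the same tunnel, and had 21.1, 23.8 and 23.2 FPKM in si-NC and 24.9, 30.4 and 27.4 FPKM in si-circRtn4. Its groups do not overlap either (log2 fold change 0.27, SE 0.0923, limma adjusted p = 0.119, with the block 0.0284).

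Mrpl16 had the lowest fold change of all members. It encodes uL16m, a core protein of the large subunit that sits near the binding site of tRNA. Its levels were 17.8, 21.9 and 26.1 FPKM in si-NC and 13.4, 18.6 and 16.8 FPKM in si-circRtn4, so the groups overlap, while each si-circRtn4 library is below the si-NC library of the same number (log2 fold change -0.40, SE 0.158, limma adjusted p = 0.159, with the block 0.0282). Mrpl42 encodes mL42, a protein without bacterial homolog, and had 12.8, 15.2 and 13.1 FPKM in si-NC and 10.3, 11.8 and 9.55 FPKM in si-circRtn4. All 3 si-circRtn4 libraries are lower, at 77.1% of si-NC on the mean (log2 fold change -0.35, SE 0.101, limma adjusted p = 0.0749, with the block 0.0168). Mrpl51, which encodes the mitochondrion-specific mL51, had 12.7, 13.1 and 12.8 FPKM in si-NC and 9.72, 11.4 and 10.99 FPKM in si-circRtn4. The si-NC libraries differ by little, and all si-circRtn4 libraries are lower (log2 fold change -0.25, SE 0.0785, limma adjusted p = 0.0961, with the block 0.0482).

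**Figure D3:**
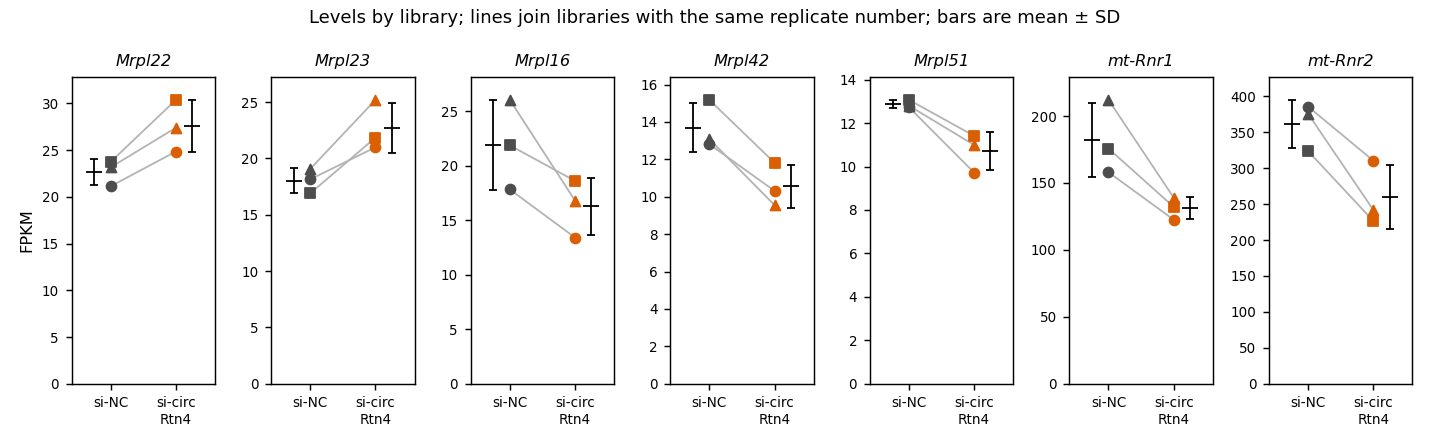
FPKM per library (linear axes from 0) of the 5 members past the threshold with the replicate block and of the 2 mitochondrial rRNAs. Circles, squares and triangles are replicates 1, 2 and 3, grey lines join the same number, and bars are mean ± SD (n = 3); Mrpl22 and Mrpl23 are higher in all si-circRtn4 libraries, the other 5 genes are lower within every number, and Mrpl16 overlaps between groups.

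The remaining members at the ends of the range did not pass either fit. On the lower side, Mrps34, a small-subunit protein found only in mitochondria, had 9.92, 10.2 and 10.1 FPKM in si-NC and 7.02, 10.1 and 7.23 FPKM in si-circRtn4 (log2 fold change -0.30, limma adjusted p = 0.192). The second si-circRtn4 library stands at the si-NC level and the other 2 are lower, and without that library the gene was the only member called (-0.45, limma adjusted p = 0.0371). Exons of Mapk8ip3 on the opposite strand and of Nme3 on the same strand overlap 77.8% of the exon bases of Mrps34, so its reads cannot be assigned with certainty. Mrpl54 had 31.0, 37.5 and 43.7 FPKM in si-NC and 23.7, 37.2 and 31.9 FPKM in si-circRtn4, with overlapping groups and the largest standard error of all members, 0.179 (log2 fold change -0.28, limma adjusted p = 0.386).

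On the higher side, Mrpl1, a protein of the large subunit next to the site where tRNA leaves, had 3.29, 3.83 and 4.04 FPKM in si-NC and 4.48, 4.49 and 4.58 FPKM in si-circRtn4 (log2 fold change 0.23, limma adjusted p = 0.164). Mrpl47, which encodes uL29m at the tunnel exit, had 5.17, 5.18 and 6.21 FPKM in si-NC and 6.57, 6.35 and 6.85 FPKM in si-circRtn4 (log2 fold change 0.22, limma adjusted p = 0.167). Both genes were higher in every si-circRtn4 library than in any si-NC library, by margins that did not pass the test. Mrps22, a small-subunit protein, had 4.45, 4.64 and 6.07 FPKM in si-NC and 5.92, 6.44 and 5.62 FPKM in si-circRtn4, with overlapping groups (log2 fold change 0.22, limma adjusted p = 0.290).

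The other members without overlap between the groups, named here because of that count, were Mrps9 on the higher side (log2 fold change 0.19, limma adjusted p = 0.180) and Mrpl44, Mrpl43 and Mrpl10 on the lower side, with log2 fold changes of -0.18, -0.13 and -0.11 and adjusted p-values from limma of 0.183, 0.266 and 0.373. In GENCODE M21, 33.4% of the exon bases of Mrpl43 are shared with Twnk on the opposite strand, which encodes the mitochondrial DNA helicase. That model has 1520 exon bases, beside a listed gene length of 1213, so the shared part can differ in the model that was counted.

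Some members sit elsewhere than their names say. Mrps30 encodes mL65, a protein of the large subunit, and had 8.70, 9.26 and 9.88 FPKM in si-NC and 10.54, 11.3 and 10.98 FPKM in si-circRtn4. All si-circRtn4 libraries are higher (log2 fold change 0.22, SE 0.0748, limma adjusted p = 0.119), and of the settings tried only scaling all libraries to an equal FPKM sum brought it past the threshold. Mrps18a also encodes a large-subunit protein, mL66, whereas its paralogs Mrps18b and Mrps18c encode proteins of the small subunit. The 3 paralogs had log2 fold changes of 0.02, 0.08 and -0.08, whose signs turn in other fits, and adjusted p-values from limma of 0.899, 0.734 and 0.611. Mrps36 had 37.1, 48.6 and 43.6 FPKM in si-NC and 38.5, 40.2 and 42.0 FPKM in si-circRtn4, with overlapping groups (limma adjusted p = 0.642).

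By subunit, the 50 large-subunit members tested had a median log2 fold change of -0.004, with 25 above 0 and 25 below, and the 26 small-subunit members had a median of 0.016, with 15 above and 11 below. The 46 members with a bacterial homolog had a median of -0.009 and the 30 mitochondrion-specific members a median of 0.013. Of the 11 members without overlap between the groups, 10 belong to the large subunit. There 10% of the members tested were higher and 10% lower, beside 16.2% and 15.5% of all genes. Among those with a bacterial homolog 5 were higher and 1 lower (10.9% and 2.17%). Among the mitochondrion-specific ones 1 was higher and 4 were lower (3.33% and 13.3%). Each of these shares is below that of all genes. The difference between these classes was not tested.

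Places within the ribosome made narrower groups. All 6 members assigned to the tunnel exit (Mrpl17, Mrpl22, Mrpl23, Mrpl24, Mrpl45 and Mrpl47) were above 0, with a median of 0.179 and a range of 0.08 to 0.31. Of these, 3 were higher without overlap between the groups (50%, beside 16.2% of all genes). This set was noticed after its values were seen, carries no test and includes the 2 members that passed with the block. Without si-NC replicate 1, or without si-circRtn4 replicate 2, 5 of the 6 members were above 0. The 5 members assigned to the head of the small subunit, which moves when tRNAs are passed on, all have a bacterial homolog. No mitochondrion-specific member of the small subunit was assigned a place, so the lists of its places are partial. These 5 were all above 0 as well, with a median of 0.079. Without si-circRtn4 replicate 2, however, only 2 of them were above 0 and the median was -0.009. The stalk proteins Mrpl10, Mrpl11 and Mrpl12, which recruit translation factors, were all below 0 with a median of -0.106, but 1 of the 3 turned above 0 when libraries were scaled to an equal FPKM sum, when reads were fitted, and without si-NC replicate 3 or si-circRtn4 replicate 1. The 7 members assigned to the central protuberance, the 4 to the small-subunit body and the 5 to its platform had medians of 0.019, 0.010 and -0.034. None of the members in these places passed the test as given above.

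**Figure D4:**
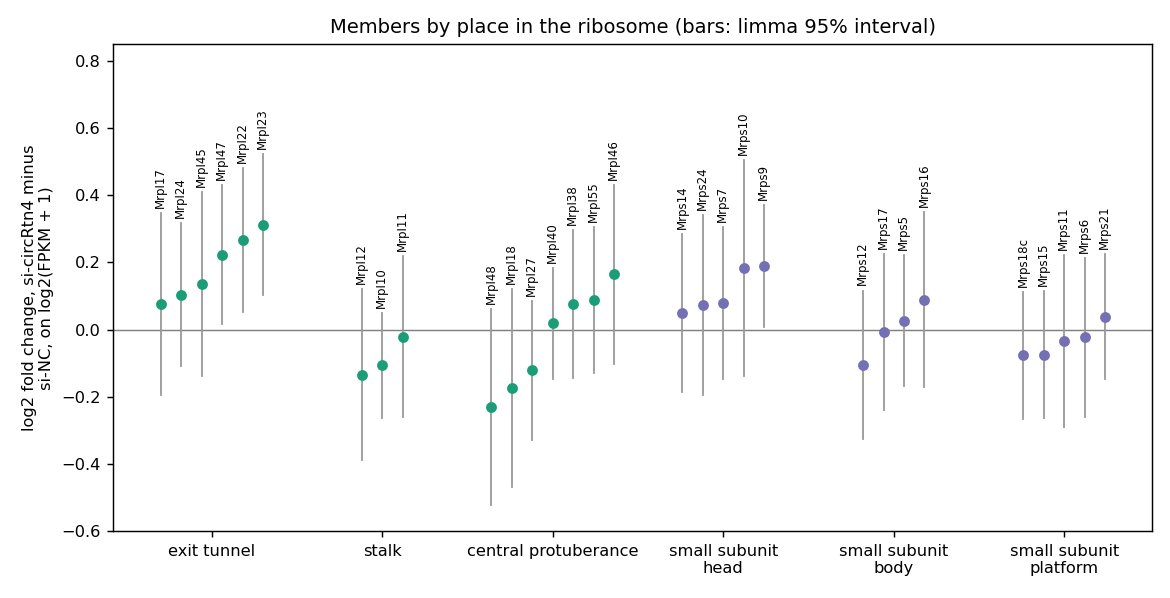
Log2 fold change (si-circRtn4 minus si-NC, on log2(FPKM + 1)) of members by their place in the ribosome, with 95% intervals from limma; green is the large and violet the small subunit. The 6 members assigned to the tunnel exit and the 5 assigned to the small-subunit head lie above 0, with most intervals crossing it. The other places hold values on both sides or, for the stalk, below 0.

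The libraries differed among themselves in the members as a list, across both groups. Replicate 1 was the lowest of its group for 52 of 77 members in si-NC (67.5%, beside 40.4% of all genes) and for 55 of 77 in si-circRtn4 (71.4%, beside 37.0%). The second si-circRtn4 library was the highest of its group for 55 members (71.4%, beside 30.9%). Measured against each gene's si-NC mean, the median member stood at -0.068, 0.029 and 0.026 in si-NC replicates 1 to 3 and at -0.089, 0.095 and -0.006 in si-circRtn4 replicates 1 to 3, on the log2 scale. The spread within a group was thus wider than the difference between the groups. Between libraries of the same number, the median member differed by -0.060, 0.063 and -0.023, and the sign changed from number to number. There were 20 members higher and 22 lower in all 3 such pairs, which is 26% and 28.6% of the members beside 28.4% and 28.3% of all genes. Summed over the members, the levels were 1588, 1685 and 1644 FPKM in si-NC and 1496, 1729 and 1594 FPKM in si-circRtn4.

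The RNAs that the mitoribosome itself contains and reads stood at lower levels in the same si-circRtn4 libraries. The rRNA of the small subunit, mt-Rnr1, had 158.0, 175.7 and 212.1 FPKM in si-NC and 122.5, 132.1 and 139.0 FPKM in si-circRtn4 (log2 fold change -0.46, limma adjusted p = 0.0520, with the block 0.0130). The rRNA of the large subunit, mt-Rnr2, had 385.8, 323.9 and 375.8 FPKM in si-NC and 310.5, 226.6 and 242.0 FPKM in si-circRtn4 (log2 fold change -0.49, limma adjusted p = 0.0644, with the block 0.0163). Neither overlaps between the groups, and both missed the threshold in the test given above. Besides the block, limma-voom on reads recovered from the table called both, quantile normalization and the fit without si-NC replicate 1 called mt-Rnr1, and the fit without si-circRtn4 replicate 1 called mt-Rnr2. Scaling to an equal FPKM sum without the gene of the largest FPKM called mt-Rnr1 as well. Of the 13 mRNAs of the mitochondrial genome, all had a log2 fold change below 0, with a median of -0.426. At the threshold 5 fell, which is 38.5% beside 4.82% of all genes. The 5 are mt-Nd1, mt-Nd2 and mt-Nd3 of complex I, mt-Co3 of cytochrome oxidase and mt-Atp6 of ATP synthase. Leaving out 1 library reduced this count to between 0 (without si-circRtn4 replicate 2) and 4, and the block raised it to 11. The genes called were not always among the 5. Without si-circRtn4 replicate 1 they included mt-Nd4 and mt-Nd6, and without si-NC replicate 2 they included mt-Co2. Without si-NC replicate 1, 12 of the 13 mRNAs were below 0 and 1 was above. With no filter on low values the count was 0, with an equal FPKM sum 3 and with limma-voom 9. Beside a median of -0.426 for these mRNAs and -0.473 for the rRNAs, the nuclear members stood at 0.004. For mt-Co3 the si-NC libraries differed widely, at 61.35, 43.26 and 159.5 FPKM, beside 21.79, 23.68 and 22.64 FPKM in si-circRtn4. Nuclear copies of parts of the mitochondrial genome can take or lose reads in the counting of these genes. Of the 5 called, mt-Atp6, mt-Co3 and mt-Nd3 averaged only 64.94, 55.37 and 11.35 FPKM, beside 1633 and 1286 FPKM for mt-Nd1 and mt-Nd2. The part of such copies in these values was not tested. The rRNAs mt-Rnr1 and mt-Rnr2 averaged 156.6 and 310.8 FPKM over the 6 libraries, beside 5207 FPKM for mt-Cytb and 3603 FPKM for mt-Co1. Steps that remove rRNA or select mRNA when libraries are made can alter such values, and their part was not tested. No test of the difference between the lists was made, and in bulk RNA fewer mitochondria per cell and less RNA per mitochondrion cannot be told apart.

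**Figure D5:**
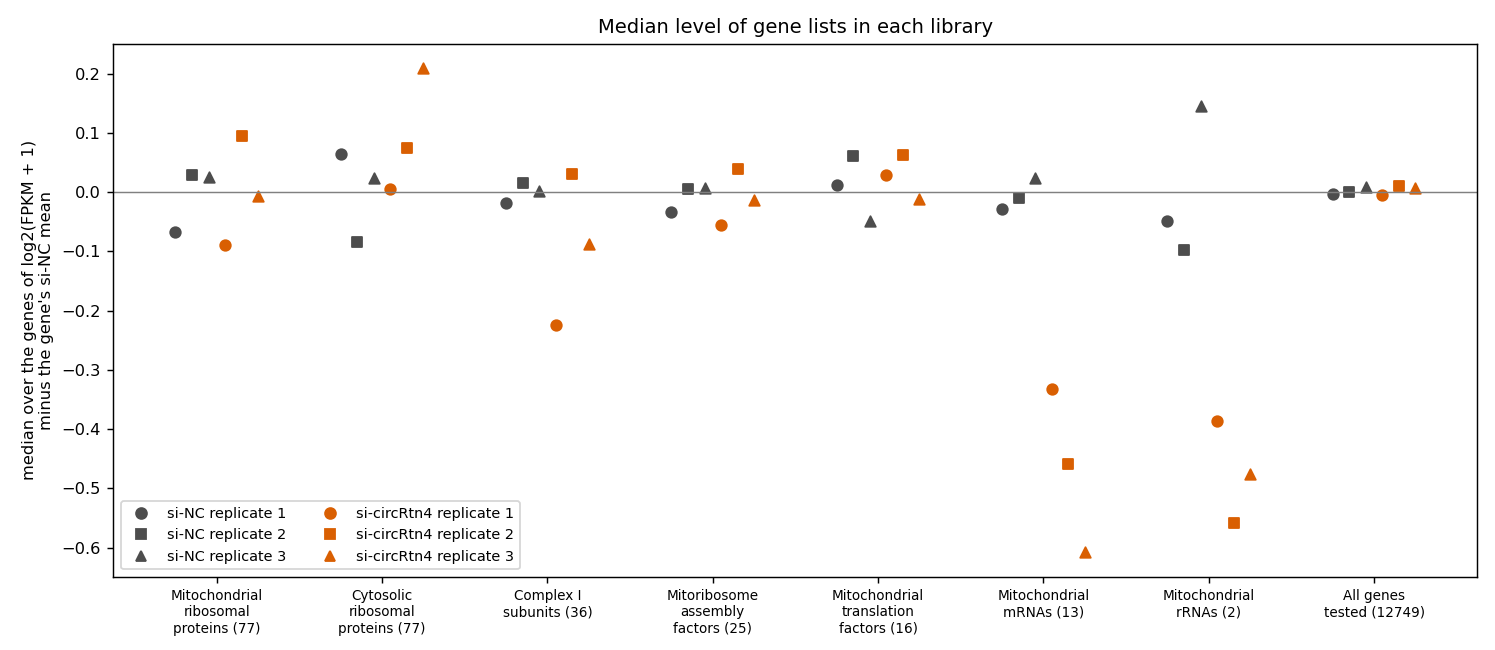
Median over the genes of each list, in each library, of log2(FPKM + 1) minus the gene's mean in si-NC; numbers of genes tested stand in brackets. Grey is si-NC, orange is si-circRtn4 and the shape is the replicate number; the mitochondrial ribosomal proteins vary by replicate around 0, while the mitochondrial mRNAs and rRNAs lie below 0 in all 3 si-circRtn4 libraries.

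Other nuclear genes of the pathway were near 0 as well. Of 5 mitoribosome proteins that carry other names, none passed the test. Aurkaip1 (mS38) was lower in all si-circRtn4 libraries (log2 fold change -0.21, limma adjusted p = 0.154), Dap3 (mS29) was higher in all of them (0.11, limma adjusted p = 0.360), and Chchd1 (mS37), Gadd45gip1 (mL64) and Ptcd3 (mS39) had log2 fold changes of 0.22, 0.01 and -0.06. Chchd1 passed with the block. Of 26 factors that assemble the mitoribosome or modify its rRNA, 25 were tested and 0 passed in either direction, with a median of 0.017. Among those tested, the rRNA methyltransferase Nsun4 differed most, at 0.30 (limma adjusted p = 0.225). Next came the GTPase Gtpbp10 at 0.20 (adjusted p from limma 0.318) and the rRNA methyltransferase Mrm3 at -0.20 (adjusted p from limma 0.406). Ybey was left out by the filter, at a mean of 0.972 FPKM. Its means were 1.15 FPKM in si-NC and 0.797 FPKM in si-circRtn4, without overlap between the groups. Of 18 mitochondrial translation factors, 16 were tested and 0 passed, with a median of 0.024. The elongation factor Tufm had the largest difference, -0.27 (limma adjusted p = 0.177), and passed with the block. In both lists, then, the median of the genes tested lay near 0, as it did in the members.

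Lists of the same kind differed from each other in median. The 77 genes of cytosolic ribosomal proteins, which have many processed pseudogenes that can share their reads, had a median log2 fold change of 0.097, with 65 above 0 and 12 below, and 1 rose (Rpl7a, 0.58, limma adjusted p = 0.0143). That median fell between 0.030 and 0.136 when 1 library was left out, and the third si-circRtn4 library was the one that raised it most. The call of Rpl7a was lost when the second library of either group was left out. The 36 nuclear subunits of complex I that were tested had a median of -0.059, which turned to 0.033 after scaling to an equal FPKM sum and to 0.001 without si-circRtn4 replicate 1, and 1 fell (Ndufv3, -0.61, limma adjusted p = 0.0057). With the block, 0 of these 36 were higher and 5 were lower, where 9.29% of all genes were higher and 9.75% were lower. Of the 77 cytosolic genes, 3 were higher and 1 was lower in that fit. These differences from the background were not tested.

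Of 10 transcription factors and coactivators known for nuclear mitochondrial genes, 9 were tested and 0 passed. Mycn was higher in all si-circRtn4 libraries (12.6, 13.5 and 15.9 FPKM in si-NC, 18.5, 19.9 and 27.6 FPKM in si-circRtn4, limma adjusted p = 0.0527). It passed with the block, with quantile normalization and with limma-voom. Scaling to an equal FPKM sum, with or without the gene of the largest FPKM, called it too. It did not pass when any 1 library was left out. Yy1 and Esrra were lower in all si-circRtn4 libraries (log2 fold changes of -0.23 and -0.27, limma adjusted p of 0.0887 and 0.152) and passed with the block. Gabpa and Nrf1 were lower in all of them as well (-0.19 and -0.09, limma adjusted p of 0.185 and 0.509) but did not pass with the block. Genes lower without overlap made up 44.4% of the 9 tested, beside 15.5% of all genes, and this difference was not tested. On the higher side the share was 11.1%, beside 16.2%. The coactivator Ppargc1a was at 0 in 4 of 6 libraries and did not exceed 0.0434 FPKM.

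Promoter windows of 300 bases (250 before to 50 after the start, RefSeq GRCm38.p6) were found for 69 of the 78 members. The ETS motif CCGGAAG stood in 36.2% of them, beside 20.1% of the windows of protein-coding genes tested and 9.12% of all windows in the table. The YY1 motif stood in 11.6% beside 3.65% of protein-coding genes tested, the NRF1 motif in 23.2% beside 15.5%, and the E-box in 7.25% beside 10.6%. The median log2 fold change was 0.005 with and 0.023 without the ETS motif, 0.029 and 0.005 for YY1, 0.037 and 0.000 for NRF1, and -0.042 and 0.019 for the E-box, the last from 5 members. A match is a description of the window and not a bound site.

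The siRNA itself has a seed that can be looked for in the members. Listed 5′ to 3′ as follows, its strand opposite to the guide carries in capitals the bases that a target of the guide's seed would share.
si-circRtn4: cttcagatgagACCCTTTt
The guide was taken to be the reverse complement of the listed strand. This site of 7 bases occurs in the longest annotated 3′ UTR of 6 of the 76 members that have one (7.89%), beside 13.1% of the 10697 genes tested. The members are Mrpl9, Mrpl42, Mrpl51, Mrpl57, Mrps16 and Mrps17, and 2 of them, Mrpl42 and Mrpl51, are among the 3 lower with the block, so their sites are shown with the site in capitals. The first is at chr10:95480805-95480825 (minus strand) and the second at chr6:125195857-125195879 (plus strand), both in GRCm38. The Mrpl42 site begins at base 351 of a 3′ UTR of 363 bases, so its window is cut short by the annotated end.
Mrpl42: ataaaaatACCCTTTcatgta
Mrpl51: cctttaggACCCTTTccccacaa
The median log2 fold change was -0.036 over the 6 members with a site and 0.013 over the other 70, and it was -0.044 and 0.007 over all genes with and without one. The other 4 members with a site had log2 fold changes of -0.07 (Mrpl9), 0.09 (Mrpl57), 0.09 (Mrps16) and -0.01 (Mrps17). The part of the seed in the lower levels was not tested.

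Some features of the members' gene models bear on counting. Divergent neighbours were counted where a protein-coding gene starts in the opposite direction up to 1000 bases away, or with at most 300 bases of overlap. Such a neighbour was found for 23 of the 78 members (29.5%), beside 14.1% of the protein-coding genes tested. Exons of other genes overlap 33 members, and for Mrpl53, Mrps34 and Mrps25 more than 50% of the exon bases are shared. Exon overlap was not counted over all genes, so it is not shown to be more common in the members. Mrpl46 and Mrps11 overlap each other head to head over 173 exon bases. Their starts overlap by more than 300 bases, so this pair is outside the count of divergent neighbours. Of the tunnel-exit members, Mrpl24 shares 26.3% and Mrpl47 shares 24.2% of its exon bases with genes on the opposite strand, while Mrpl22 and Mrpl23 overlap no other gene. Since strand use in the counting is not stated, reads from such stretches cannot be told apart. Across the 77 members, Spearman's rho between log2 fold change and listed gene length was 0.346, whereas it was -0.0252 across the 10783 protein-coding genes tested. All points share the same 6 libraries, and longer members were lower in level (rho of -0.771 between length and mean), so this is a description of the list.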

How the data were processed

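RNA was sequenced from 6 libraries of N2a cells, 3 with si-NC and 3 with si-circRtn4, assigned to groups by their labels. The gene values are FPKM as the authors computed and deposited them, beside a listed gene length and annotation columns per the file headers. The submitters' processing notes name Bowtie 0.12.2 with mm8 and mm9. The listed genes, however, match GENCODE M21 on GRCm38, where 54409 of 54532 were found and 98.1% of all listed have the same start and end. The counting tool and its use of strand are not given in the sources used here. The table has 6 more columns that belong to no sample analysed here and were left out.

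FPKM times gene length gave whole multiples of a single step for 100% of values within 0.1 of a read, so reads could be recovered: 14748929, 14201979 and 14100818 in si-NC and 13541198, 15122063 and 14535944 in si-circRtn4. These sums are 95.18 to 100.8% of the depth that the step itself implies. These reads served only for limma-voom as an alternative.

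R 4.3.3 and its package limma 3.58.1 (lmFit, eBayes with trend) were applied to log2(FPKM + 1), over the 12749 genes averaging at least 1 FPKM, with Benjamini-Hochberg adjustment and a threshold of 0.05. Fold changes are on this scale. A two-sided exact permutation test of 3 libraries against 3 cannot go below p = 0.1, so no single gene could pass it. Promoters came from RefSeq (GRCm38.p6), gene models from GENCODE M21. Tables were joined in Python 3.11.15 (pandas 2.3.3) and plots drawn with matplotlib 3.10.9.

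Whether the replicate numbers pair the libraries was checked on deviations from group means over the genes tested. These correlated at 0.331, 0.19 and 0.226 for equal numbers and at 0.00913 at most for unequal ones. The numbers were therefore taken as pairs in the replicate block, from the data and not from a stated batch or day. The main fit, its intervals and the other alternatives are unpaired.

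The members and lists were chosen with earlier results of these data known, and 1 gene of the marker list is not reported here. Members named with values are those called, the 5 largest differences in each direction, the 5 highest and 5 lowest levels, those not tested, and those whose place differs from their name (with the Mrps18 paralogs). Of other lists, called genes, up to 3 of the largest differences and all of the short lists are named. Members of the ribosomal places, those with seed sites and those with overlapping exons, and the list of cytosolic ribosomal proteins and of complex I, were named or made outside this rule, with values seen. The same holds for Gabpa, Nrf1, mt-Cytb and mt-Co1.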

Additional observations from a re-analysis of the deposited data

How the results depend on the processing

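The fits tried were a pseudocount of 0.1, no filter on low values, equal FPKM sums (TPM), TPM without Gm23935 (the gene of the largest FPKM, 57 bases long), quantile normalization, limma-voom on recovered reads, the replicate block and leaving out each library. The count of members called as higher was 0 at first and became 3 with TPM (Mrpl22, Mrpl23 and Mrps30), 1 with TPM without Gm23935 (Mrpl23), 1 with limma-voom (Mrpl23) and 2 with the replicate block (Mrpl22 and Mrpl23). The count called as lower was 0 and became 3 with the replicate block (Mrpl16, Mrpl42 and Mrpl51), and no other member's call changed with this pairing. Leaving out 1 library gave 0 to 1 members lower, the 1 being Mrps34 without si-circRtn4 replicate 2, and 0 higher. The cause of these changes was not tested. Over all genes tested, 556 were higher and 615 lower, against 972 and 393 with TPM, where Gm23935 held 13.5 to 20.7% of a library's sum. The median log2 fold change of the members was 0.095 with TPM, beside 0.090 for all genes, and ran from -0.046 without si-circRtn4 replicate 2 to 0.046 without si-circRtn4 replicate 1. Among the members that the naming rule picked, signs turned in 5, all near 0 and none called: with TPM, Mrpl2 was 0.050, Mrps18c 0.009 and Mrps36 0.001, and leaving out 1 library gave -0.087 to 0.024 for Mrpl2, -0.008 to 0.045 for Mrps18a and -0.036 to 0.157 for Mrps18b. With 3 libraries a group, half-intervals of 0.153 to 0.418 on the log2 scale limit what could be seen, and Mrpl53 could not be assessed.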
